A study of Arabidopsis thaliana with 625 samples.

Results

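The cells described here are heat-response cells of the TMMp line of Arabidopsis thaliana, cells that carried 3 heat shock transcripts and none of 4 genes that mark stages of the stomatal lineage. Members were chosen by measured expression: a cell was one when AT1G53540, HSP17.6A and HSP90.1 each reached 1 TPM, a length-normalised share of the transcripts of a cell, and SPCH, MUTE, FAMA and POLAR were each below 1. This held for 135 of the 478 TMMp cells, out of 621 Smart-seq2 cells in all. Another 21 cells, of the ATML1p line described below, also met the rule and are not counted as members. The 135 members were compared within plates with 58 heat-free TMMp cells, which also lacked the 4 stage genes and had all 3 heat genes below 1. A further 70 cells without stage genes had 1 or 2 of the heat genes, and 215 cells had a stage gene.

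All cells came from aerial tissue taken 10 days after germination and carried TMMp::TMM-YFP, in which the promoter of TMM drives a fusion of the TMM receptor with a yellow fluorescent protein. They were sorted singly into 7 plates, 2 from pool 1 and 5 from pool 2, and read with Smart-seq2, which sequences whole transcripts from cells in wells and has no molecular identifiers. The labels used here gave no growth temperature and no heat treatment, and members and comparison cells shared tissue, age, reporter and plates. Each plate held cells of 1 line and pool. Cells of a second line, ATML1p::YFP-RCI2A, in which an epidermal promoter drives a membrane-bound fluorescent protein, were sorted onto 5 plates of their own and are used as a second set.

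Heat shock factors are transcription factors that bind repeats of a short sequence in promoters, the heat shock element, when proteins misfold. Their targets encode chaperones. Small heat shock proteins hold unfolded proteins, HSP70 and HSP90 refold them with the help of co-chaperones, and HSP101 pulls aggregates apart. In plants the A1 class of factors is present before stress, while HSFA2 is made during the response and prolongs it. The stomatal lineage is the set of epidermal cells that divide unequally and end as the guard cells of the leaf pores. SPCH, MUTE and FAMA drive its successive steps, POLAR marks the polarity of dividing cells, and TMM is a receptor-like protein of early lineage cells.

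The values of the 3 heat genes chose the members and are given as a description. In the 135 members, AT1G53540, which encodes a protein of the small heat shock family, ranged from 7.58 to 42242 TPM with a median of 7208. HSP17.6A, a cytosolic small heat shock protein, ranged from 4.15 to 44188 TPM with a median of 11580. HSP90.1, the heat-inducible cytosolic HSP90, ranged from 1.57 to 16258 TPM with a median of 3835. Most members were far from the threshold. The lowest of the 3 genes was under 10 TPM in 7 members, where it lay between 1.57 and 7.58, and was at least 126 in the other 128. Just outside, 45 cells had 2 of the genes and the missing gene was listed at 0 in each of them. In all 58 heat-free cells all 3 genes were listed at 0. Across the 135 members the 3 genes varied together only in part, with Spearman correlations of 0.51 between AT1G53540 and HSP17.6A, 0.53 between AT1G53540 and HSP90.1 and 0.49 between HSP17.6A and HSP90.1. These cells share depth and composition, so the correlations are descriptions.

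The stretches of DNA upstream of 2 of the chosen genes and of 4 further genes that were higher in the members are shown to place the heat shock element beside the values. HSP90.1, the third heat gene of the rule, is not shown, because its annotated start may lie inside its coding sequence. The stretches shown were picked because each holds a match to the element, so their matches are no result. They were read from the TAIR10.1 reference genome and end at the base before the annotated gene start, written 5′ to 3′ on the strand of the gene. Capitals mark matches to 2 units of the element, GAANNTTC or TTCNNGAA, and to 3 units, GAANNTTCNNGAA or TTCNNGAANNTTC, where N is any base. Both strands are covered because each of the first 2 motifs is its own reverse complement and the second pair are reverse complements of each other. Every 3-unit match contains 2-unit matches. 
AT1G53540, chr1:19980149-19980298, plus strand: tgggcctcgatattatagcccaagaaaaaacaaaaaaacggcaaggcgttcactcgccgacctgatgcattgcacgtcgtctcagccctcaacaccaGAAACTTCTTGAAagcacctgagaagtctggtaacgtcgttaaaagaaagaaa
HSP17.6A, chr5:3884839-3884948, minus strand: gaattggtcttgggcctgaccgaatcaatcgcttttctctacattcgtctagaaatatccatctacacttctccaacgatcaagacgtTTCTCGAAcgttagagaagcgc
HSP17.4, chr3:16984868-16985017, minus strand: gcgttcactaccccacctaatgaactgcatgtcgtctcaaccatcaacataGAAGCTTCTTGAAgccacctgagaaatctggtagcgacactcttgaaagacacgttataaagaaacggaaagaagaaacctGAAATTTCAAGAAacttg
HSFA2, chr2:11135474-11135623, plus strand: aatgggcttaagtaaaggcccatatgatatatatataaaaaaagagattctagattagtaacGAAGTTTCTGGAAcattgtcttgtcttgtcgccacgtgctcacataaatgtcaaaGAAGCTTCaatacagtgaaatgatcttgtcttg
HSFA7A, chr3:19264991-19265140, plus strand: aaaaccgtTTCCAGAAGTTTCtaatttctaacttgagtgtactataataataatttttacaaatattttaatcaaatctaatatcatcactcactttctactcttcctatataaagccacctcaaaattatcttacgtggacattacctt
BAG6, chr2:18985983-18986132, plus strand: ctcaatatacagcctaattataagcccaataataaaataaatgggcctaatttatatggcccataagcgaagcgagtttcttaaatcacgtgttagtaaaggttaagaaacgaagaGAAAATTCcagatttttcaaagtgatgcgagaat

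The AT1G53540 stretch held a 3-unit match that begins 53 bases before the gene start, and the HSP17.4 stretch held 2 of them, 99 and 18 bases before it. HSFA2 had its 3-unit match 88 bases and HSFA7A 142 bases before the start. In the 250 bases upstream of genes, which can reach into a neighbouring gene, a 3-unit match stood in 4 of the 43 heat-list genes that were higher in the members (9.30%), in 1 of 26 heat-list genes that were tested and did not pass (3.85%), in 0.506% of the 10070 tested genes with a window and in 0.385% of the windows of all 37899 annotated genes. The fourth of the 4 genes was DREB2A, whose match lies 164 bases before the start. A 2-unit match stood in 12 of the 43 (27.9%), in 6 of the 26 (23.1%), in 16.6% of the tested genes and in 16.3% of all windows. Of the 3 heat genes of the rule, 2 held one. So did 2 of the 12 genes with the largest rises outside the heat lists and 5 of the 12 with the largest falls. The rule gene without a match was HSP90.1. Its window may not cover its promoter, given its uncertain start, so the missing match is no result. No gene of the 12 largest rises or the 12 largest falls held a 3-unit match. These are matches of letters, and their use in these cells was not measured.

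Members made up 135 of the 263 TMMp cells without a stage gene, or 51.3% (exact 95% interval 45.1 to 57.5). The share differed between pools. On the plates of pool 1 it was 29.7% on TMM-1 and 29.4% on TMM-2, and on the plates of pool 2 it lay between 48.8% on TMM6 and 67.7% on TMM7. Pooled over plates, 21 of 71 cells (29.6%, interval 19.3 to 41.6) were members in pool 1 and 114 of 192 (59.4%, interval 52.1 to 66.4) in pool 2. Every plate of pool 2 was above both plates of pool 1, and no test was made because the rule is built from these values. The 3 heat genes were not limited to cells without stage genes: 87 of the 215 cells with a stage gene (40.5%, interval 33.8 to 47.4) had all 3. The intervals cover the counting of cells only.

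**Figure D1:**
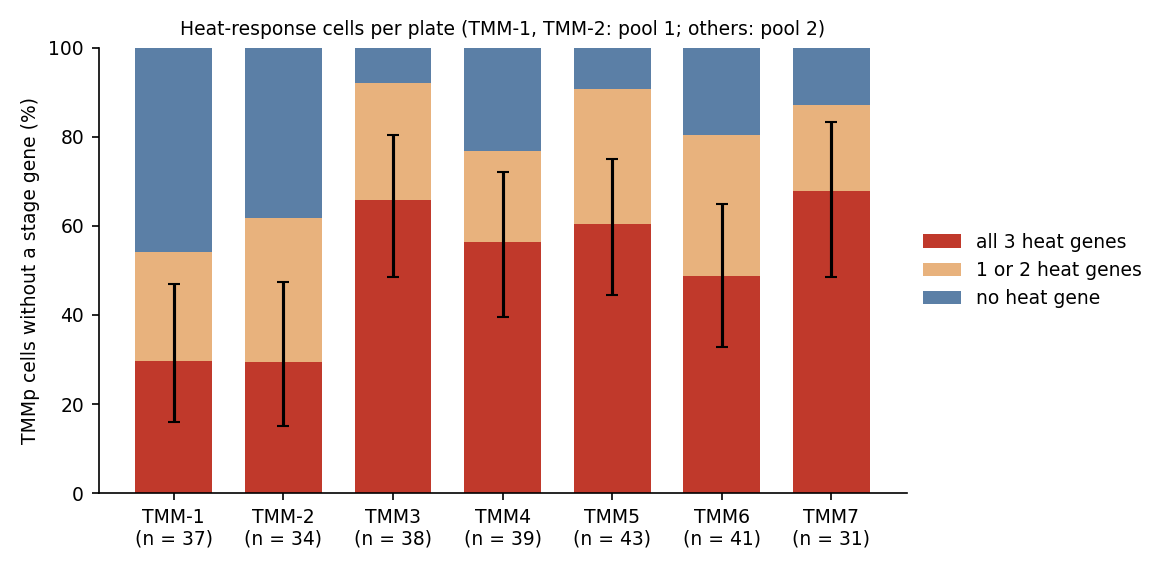
Share of TMMp cells without a stage gene (%) on each plate that had all 3 heat genes (red), 1 or 2 (orange) or none (blue); n is the number of such cells and the black bars are exact 95% binomial intervals of the red share. The 2 plates of pool 1 lie at 29.7% and 29.4%, and the 5 plates of pool 2 between 48.8% and 67.7%.

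Members and heat-free cells differed in more than the heat genes. Read depth cannot be told from TPM, and a gene is called detected in a cell when it reaches 1 TPM. A member had a median of 2377 detected genes (range 1055 to 5094) and a heat-free cell 2186 (range 384 to 5316), and the mean per plate was higher in members on 6 of 7 plates. Plate medians were 2393 against 1056 on TMM3, 2324 against 1001 on TMM5 and 2357 against 1520 on TMM7. These plates held 3, 4 and 4 heat-free cells, so a heat-free plate mean of 0 TPM can rest on few shallow cells. The medians were 2559 against 2527 on TMM-1, 2140 against 2227 on TMM-2, 2240 against 1812 on TMM4 and 2570 against 2360 on TMM6. Transcripts encoded in the organelles took less of the RNA of members on 7 of 7 plates: the plate means lay between 4.08% and 7.38% of TPM in members, with a median of 5.00%, and reached 18.8% in heat-free cells, with a median of 12.1% and no overlap. The heat lists themselves took 9.88% of TPM in members in the median plate, but with those genes removed from the total the organelle share still ran from 4.62% to 7.87% against 10.2% to 18.8%. The part of depth and organelle content in the differences between the 2 kinds of cells was not tested beyond the adjustments given next. A gene listed at 0 may also be a failed capture, and the heat-free cells were chosen for having 3 genes at 0.

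For each of 10199 genes detected in at least 5% of the compared cells, each plate gave 1 difference between the mean log2(TPM + 1) of members and of heat-free cells, adjusted for the number of genes detected, and limma tested the 7 differences against 0. The 7 genes of the rule were left out. The filter pooled both kinds of cells and members were the larger group, so a gene found in members alone could pass it. HSP23.6, HSFA7A and GSTU24, called higher below, were detected in no heat-free cell, and their calls are descriptions. At a Benjamini-Hochberg adjusted p under 0.05, 759 genes (7.44%) were higher and 1227 (12.0%) were lower in the members, with a median difference of -0.18 over all genes. Leaving out plate TMM-1 or TMM6 lowered the total from 1986 to 1257 or 1228. The split between higher and lower genes depended on how depth was treated. Without the covariate 991 (9.72%) were higher and 275 (2.70%) lower, and when each member was set against the heat-free cell of its plate nearest in genes detected, 391 (3.83%) were higher and 96 (0.941%) lower. Matching drew on 34 of the 58 heat-free cells and left members 0.20 higher in log2 genes detected, against 0.59 before. Both results are given for the heat genes. Differences on the log2(TPM + 1) scale join the share of cells with a gene and its level in those cells, and understate changes of low genes.

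Small heat shock proteins were the group with the largest differences. Of 16 listed genes, 2 belonged to the rule, 13 were tested and 8 of these were higher and none lower, with a median difference of 5.91 on the log2 scale. With matched cells 7 were higher and the median was 6.29. AT1G07400, annotated as an HSP20-like chaperone, had plate means of 4067, 9277 and 13164 TPM (lowest, median and highest of 7 plates) in members and of 0, 59.2 and 573 TPM in heat-free cells. The 2 kinds did not overlap in their plate means, and the difference was 10.75 ± 0.57 (SE, 7 plates, limma adjusted p = 4.85e-10). HSP17.6II, a class II cytosolic member and the neighbour of HSP17.6A on chromosome 5, had plate means of 2628, 6888 and 10376 TPM in members against 0, 7.19 and 28.7 TPM, and was higher by 8.24 ± 0.63. AT5G51440, another HSP20-like gene, had 394, 509 and 753 TPM against 0, 0 and 187 TPM and was higher by 6.36 ± 0.61. AT1G54050, AT1G59860, AT2G29500 and HSP17.4 were higher by 8.15, 7.53, 7.21 and 5.91. None of these 7 genes overlapped between members and heat-free cells in plate means, while HSP23.6, which was also higher, did overlap. The share of all tested genes without such overlap is not given, so lack of overlap is a description here and below.

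Not every small heat shock gene was part of the pattern. HSP18.2, a class I gene, was detected in 11 of 135 members and 1 of 58 heat-free cells, with a difference of 0.56 ± 0.25 that did not pass (adjusted p = 0.125). HSP22.0, whose protein enters the endoplasmic reticulum, was detected in 15 members and no heat-free cell and did not pass (0.40 ± 0.27, adjusted p = 0.309). HSP21, the chloroplast form, was detected in 7 members and fell under the filter. HSP23.6, a mitochondrial form, was found in 37 members and no heat-free cell and was higher by 1.54 ± 0.51 (adjusted p = 0.0392), a call that matching removed (adjusted p = 0.126), as did leaving out TMM-1, TMM5, TMM6 or TMM7. The class I genes are close copies of each other and of AT1G53540, so reads could be shared among them and the values of single genes are uncertain. Sharing of reads between HSP17.6II and its neighbour HSP17.6A was not tested either. Reads shared with a gene of the rule would make a gene higher in members through the choice of cells.

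In the HSP70 family, 9 of 12 tested genes were higher, none was lower and the median difference was 4.39. Matching kept 7 of them. HSP70, an inducible cytosolic form, was found in all 135 members and in 25 of 58 heat-free cells. Its plate means were 7893, 9030 and 13207 TPM in members and 0, 158 and 1564 TPM in heat-free cells, without overlap, and it was higher by 9.28 ± 0.62 (adjusted p = 6.39e-09). HSP70B, also inducible, had 944, 1875 and 2515 TPM against 0, 0 and 57.0 TPM (8.26 ± 0.66). The mitochondrial mtHsc70-2 had 340, 520 and 580 TPM against 0, 1.28 and 109 TPM (6.19 ± 0.59). HSP70B and mtHsc70-2 were found in 4 and 9 of the 58 heat-free cells. HSC70-1, the main constitutive form, already had a median plate mean of 540 TPM in heat-free cells, with 1662 TPM on the highest plate, against 634, 1399 and 2580 TPM in members. Its plate means overlapped, and its difference of 2.52 ± 0.61 (adjusted p = 0.00789) was lost with matching (1.95 ± 0.85, adjusted p = 0.199). HSP70-2, next to HSC70-1 in the genome and close to it in sequence, was higher by 2.76 and also lost its call with matching (adjusted p = 0.162). HSP70-15 and HSP70-14, of the HSP110 branch that helps HSP70 release its substrate, were higher by 5.34 and 3.53, HSP70T-2 by 5.26 and AT3G09440 by 5.30.

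Among HSP90, HSP100 and chaperonin genes, 6 of 15 were higher and 1 was lower, with a median of 0.83, and 5 of the 6 stayed higher with matching. HSP101, the cytosolic disaggregase, had plate means of 2232, 3034 and 3777 TPM in members against 0, 67.8 and 229 TPM and was higher by 8.82 ± 0.58 (adjusted p = 6.39e-09). Its organellar relatives CLPB3 of the chloroplast and CLPB4 of mitochondria were higher by 3.09 ± 0.50 and 2.01 ± 0.43. The cytosolic HSP90.2 was higher by 5.39, HSP90.3 by 4.03 and HSP90.4 by 1.07. HSP90.2, HSP90.3 and HSP90.4 are near-identical copies whose reads could be split, and HSP90.4 lost its call with matching (adjusted p = 0.177). The chloroplast HSP90.5 (-1.07 ± 0.40, adjusted p = 0.0653) and the chloroplast chaperonin CPN60A (-0.80 ± 0.44, adjusted p = 0.203) did not pass. CPN20, a chloroplast co-chaperonin, was lower by -1.54 ± 0.44 (adjusted p = 0.0206), a call lost with matching (adjusted p = 0.132) and without TMM-1, TMM5 or TMM6.

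Of 21 heat shock factor genes 13 were tested. HSFA2, HSFB1, HSFB2A, HSFB2B, HSFA7A and HSFA4C were higher, none was lower and the median difference was 0.65. HSFA2 had plate means of 383, 565 and 724 TPM in members and a median of 0 TPM in heat-free cells, without overlap, and was higher by 6.45 ± 0.68 (adjusted p = 3.03e-06). HSFB1, a factor of the B class whose members lack the activation domain of the A class, had 172, 341 and 576 TPM against 0, 1.38 and 126 TPM (5.03 ± 0.65), and HSFB2A had 269, 326 and 403 TPM against 0, 28.9 and 109 TPM (4.44 ± 0.62). These 3 kept their calls with matched cells. HSFB2B (1.89), HSFA7A (1.44) and HSFA4C (1.11) did not, although their matched differences were 2.39, 1.66 and 1.46, at adjusted p of 0.0515, 0.0622 and 0.0527. Without plate TMM6 these 3 dropped out and 3 of the 13 passed, HSFB2B also failed without TMM4, and HSFA4C failed with any plate but TMM-1 left out. HSFA7A was detected in 35 of 135 members and in no heat-free cell. None of the A1 factors, which act first in the response, passed. HSFA1B was detected in 62 members and the others in 17 to 22, and HSFA1A differed by 0.23 ± 0.35, HSFA1B by -0.89 ± 0.44, HSFA1D by 0.64 ± 0.32 and HSFA1E by 0.65 ± 0.39. HSFA6A, HSFA6B, HSFA9, HSFB3 and HSFB4 were at 0 in all members and heat-free cells.

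Co-chaperones and other heat genes held 14 higher and 1 lower gene among 18 tested, with a median of 4.86, and 13 stayed higher with matched cells. BAG6, a co-chaperone that binds HSP70 and calmodulin, was found in 134 of 135 members and 3 of 58 heat-free cells. Its plate means were 1574, 2010 and 2795 TPM against 0, 0 and 25.5 TPM, and it was higher by 10.25 ± 0.57 (adjusted p = 4.85e-10). FES1A, which protects cytosolic HSP70 from degradation, had 3485, 5546 and 7204 TPM against 0, 136 and 924 TPM (8.91 ± 0.63). HOP3, which links HSP70 to HSP90, had 922, 1407 and 2011 TPM against 0, 1.26 and 35.6 TPM (8.59 ± 0.57). Its relative HOP2 was higher by 2.57 while HOP1 was lower by -1.72 ± 0.37 (adjusted p = 0.00378, matched adjusted p = 0.0358), so the 3 HOP genes did not move in the same direction. MBF1C, a transcriptional coactivator needed for heat tolerance, had 1563, 1990 and 2189 TPM against 25.2, 71.7 and 289 TPM (6.77 ± 0.59). DREB2A, a transcription factor of drought and heat, differed less cleanly, with 1230, 1856 and 2837 TPM against 168, 461 and 1326 TPM, overlapping plate means and a difference of 5.35 ± 0.64. The peptidyl-prolyl isomerases ROF1 and ROF2 were higher by 4.83 and 5.84, the DNAJ proteins J2 and J3 by 4.70 and 5.06, AT2G20560 of the same family by 6.27, HSA32, needed for long-term acquired tolerance, by 4.14, AT3G12050, with an Aha1 domain, by 4.88 and BOB1 by 1.94. BOB1 lost its call with matching (adjusted p = 0.0681) and without TMM-1 or TMM6. APX2, an ascorbate peroxidase of severe heat and light stress, was detected in 2 members and fell under the filter.

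**Figure D2:**
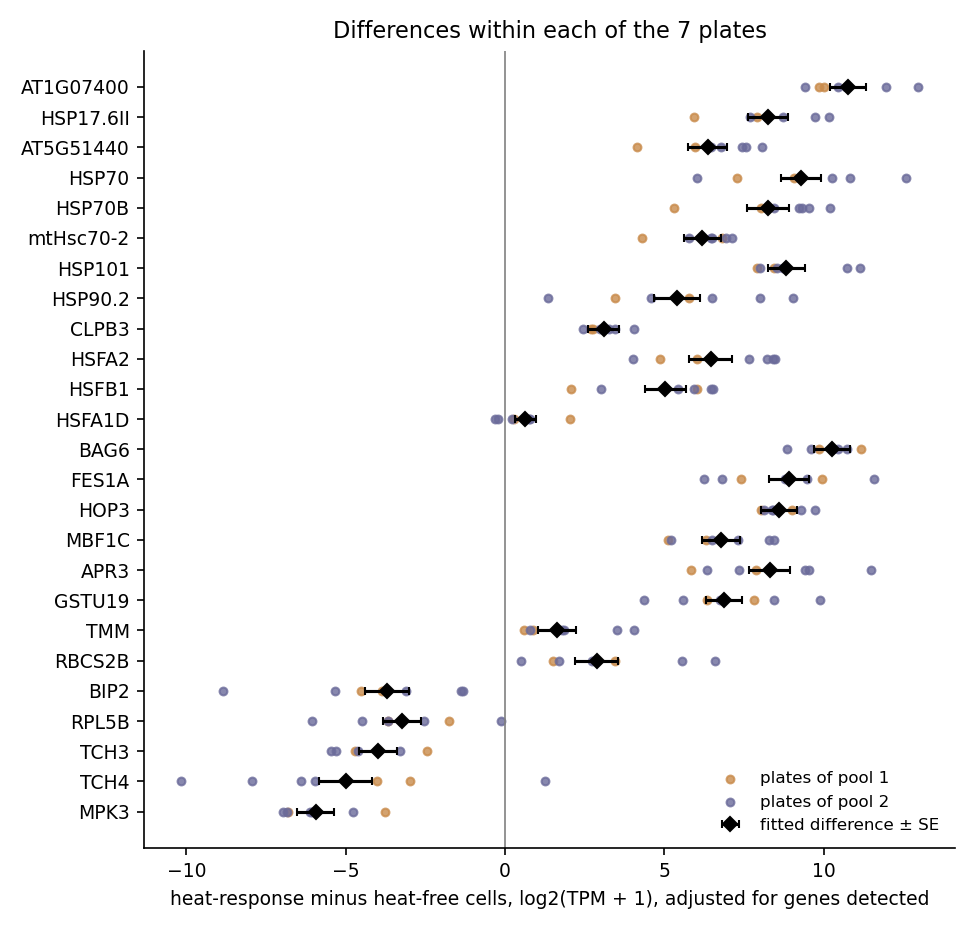
Difference in mean log2(TPM + 1) between heat-response and heat-free cells, adjusted for genes detected, on each of the 7 plates (coloured points) with the limma estimate and its SE (black) for 25 genes. All 7 plates lie above 0 for the induced chaperones such as BAG6 (10.25) and HSP70 (9.28), while the plates of HSFA1D (0.64) lie on both sides of 0 and those of MPK3 (-5.94) all lie below it.

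The members varied in how much of their RNA was heat-related. The 82 other heat-list genes that were measured took a median of 8.24% of TPM in a member (lowest 0.226, quartiles 5.09 and 10.6), 2.06% in a cell with 1 or 2 rule genes and 0.457% in a heat-free cell (range 0.00270 to 3.83). Their plate means lay between 5.69% and 10.4% in members and between 0.176% and 1.14% in heat-free cells, so no plate overlapped. Single cells did overlap: 2 members were under 1% and 13 heat-free cells above it. A median of 40.0 of these genes were detected per member and 15.0 per heat-free cell, and 29 members had no more of them than the heat-free cell with the most, which had 34.0. Across the 135 members this heat share had a Spearman correlation of -0.58 with the organelle share and -0.19 with the number of genes detected. Shares of 1 total are tied to each other, so these values are descriptions.

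Heat genes outside the rule were detected in more cells the more rule genes the cells had. Cells were pooled over plates here, and 30 of the 58 heat-free cells but 21 of the 135 members came from pool 1. A rule gene can also be missed in capture, so these steps are a description. HSP101 was detected in 27.6% of the 58 cells with none of the 3 rule genes, 52.0% of 25 cells with 1, 93.3% of 45 cells with 2 and 97.8% of the 135 members. BAG6 went from 5.17% through 24.0% and 80.0% to 99.3%, and HSFA2 from 12.1% through 20.0% and 62.2% to 83.7%. The median level of HSP70 over cells was 0, 447, 4920 and 8950 TPM in the same order. In level, cells with 2 rule genes lay further below the members: the median was 1159 TPM for HSP101, 758 for BAG6 and 197 for HSFA2, against 3225, 1948 and 510 in members and 0 in heat-free cells. Cells with a stage gene and all 3 heat genes had lower medians of these genes, 5477 TPM for HSP70, 1580 for HSP101 and 1186 for BAG6. In those cells HSP70 was detected in 96.6%, HSP101 in 100%, BAG6 in 94.3% and HSFA2 in 92.0%. Cells with a stage gene had a median of 3814 detected genes against 2377 in members, and TPM is a share, so the levels are not directly comparable. MPK3 was detected in 75.9%, 88.0%, 62.2% and 35.6% of cells with 0, 1, 2 and 3 rule genes, and TCH4 in 75.9%, 72.0%, 46.7% and 28.1%.

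**Figure D3:**
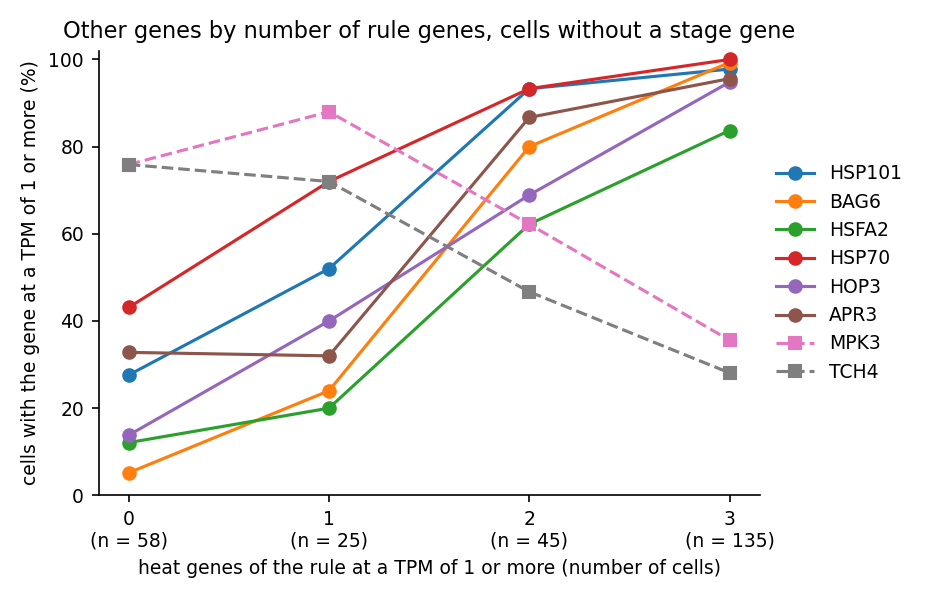
Percent of TMMp cells without a stage gene, pooled over plates, in which each gene stood at a TPM of at least 1, by the number of rule genes detected in the cell. Here n is the number of cells. The 6 solid lines end between 83.7% (HSFA2) and 100% (HSP70) in members, and the dashed lines of MPK3 and TCH4 end at 35.6% and 28.1%.

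Outside the heat lists, 291 genes were higher and 72 lower by a stricter standard that also asked for the same direction on 7 of 7 plates and the same call with matched cells. The 12 largest rises held 3 RNAs and 1 coding gene that overlap a heat or sulfur gene. AT3G04685, annotated as an antisense RNA, overlaps MBF1C and was higher by 10.16 ± 0.55, with plate means of 6055, 8078 and 8730 TPM in members against 0, 168 and 1055 TPM. AT3G03215 (7.18), a long non-coding RNA, overlaps PDX1.2, a heat-induced pseudoenzyme of vitamin B6 synthesis. AT1G08477 (6.82), another, overlaps APR2, and AT1G74300 (6.99), an alpha/beta-hydrolase gene, overlaps HSP101. Whether reads were counted by strand is not stated, so reads of these genes and of their partners cannot be told apart. APR3, an adenylylphosphosulfate reductase of sulfate assimilation, had 2974, 3545 and 5814 TPM against 0, 263 and 897 TPM and was higher by 8.30 ± 0.65 (adjusted p = 6.49e-08). GSTU19, a glutathione transferase of the tau class, had 9811, 11789 and 18168 TPM against 0, 871 and 1440 TPM (6.87 ± 0.56). The plate means of APR3 and GSTU19 did not overlap. The other rises were AT3G10020 (8.63), AT1G30070 with an SGS domain (7.83), AT5G35320 (7.70), AT5G16010 of the steroid dehydrogenase family (7.22), AT4G15420 of the UFD1 family of ubiquitin fusion degradation (6.95) and AT1G14200, a RING protein (6.84).

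The 12 largest falls were of another kind. MPK3, a MAP kinase of stress and immune signalling that also acts in stomatal patterning, had plate means of 27.8, 179 and 313 TPM in members and of 591, 965 and 1727 TPM in heat-free cells. The 2 kinds did not overlap and MPK3 was lower by -5.94 ± 0.58 (adjusted p = 1.01e-06, matched adjusted p = 0.000363). AT1G55450, of the methyltransferase superfamily, had 376, 718 and 1235 TPM against 1939, 3373 and 6413 TPM (-4.92 ± 0.62). TCH3, a calmodulin-like protein induced by touch, had 338, 599 and 904 TPM against 1655, 2285 and 4002 TPM (-3.99 ± 0.59), and AT2G41105, which overlaps it and may share its reads, fell by 4.33 on the log2 scale. AT4G34150, a calcium-dependent lipid-binding protein, was lower by -4.26, AT5G19240 by -4.03 and DIC2, a mitochondrial dicarboxylate carrier, by -4.01. The others serve protein synthesis or basic metabolism: EMB2296 (-4.54) and AT5G07090 (-4.36) are ribosomal proteins, FIB1 (-4.24) is a fibrillarin of the nucleolus, NDPK1 (-4.40) a nucleoside diphosphate kinase and HOG1 (-4.27) an adenosylhomocysteine hydrolase. By product name, 9 of the 73 genes that were lower by the stricter standard and 0 of the 326 that were higher were ribosomal proteins, against 254 of the 10199 tested.

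In the unfolded protein response of the endoplasmic reticulum, 10 of 16 tested genes were lower and 1 higher, with a median of -2.03. ERDJ3A, a DNAJ protein of that compartment, was the higher one, with plate means of 452, 576 and 678 TPM against 0, 50.6 and 120 TPM and a difference of 5.94 ± 0.65. The lumenal HSP70 chaperones BIP1 and BIP2 were lower by -2.56 and -3.69, HSP90.7 by -2.60, the lectin chaperone CNX1 by -1.79 and the calreticulins CRT1a and CRT3 by -3.55 and -2.14. AT5G07340 (-2.04), PDIL2-1 (-2.34), SDF2 (-2.11) and ERDJ3B (-2.02) were also lower. Of the 10 lower genes only CNX1 kept its call with matched cells (-2.14, adjusted p = 0.0472), while ERDJ3A kept its own (adjusted p = 0.000644). The matched median was -1.68. Without plate TMM-1 the count of lower genes was 6. Without the covariate 2 of the 16 were lower and 1 higher, with a median of -1.28, so the count of lower genes rests on the treatment of depth. With cells under 1000 genes left out 5 were lower. In the ATML1p line 2 of 15 tested genes of this list were higher and 1 was lower.

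Oxidative and mitochondrial stress genes held 5 higher and 1 lower gene of 11, with a median of 1.17. Besides GSTU19 these were GSTU24 (2.60), GSTF8 (1.71), ZAT12 (1.84) and NAC013 (1.37), and the catalase CAT2 was lower by -1.31. GSTF8 and ZAT12 were already abundant in heat-free cells, with median plate means of 6680 and 3910 TPM against 12958 and 4708 TPM in members. With matching, GSTU19 and GSTU24 kept their calls. GSTU24 was detected in 40 of 135 members and in no heat-free cell, so it passed the filter through the members alone. Without TMM-1, TMM6 or TMM7, 3 of the 5 higher genes passed and CAT2 did not. Of 15 wounding and jasmonate genes, TCH3, TCH2 (-4.04), TCH4 (-5.00) and WRKY53 (-1.76) were lower and ERF5 (2.05) was higher, with a median of -0.13. TCH4, a cell wall enzyme induced by touch, was found in 38 of 135 members and 44 of 58 heat-free cells and kept its call with matched cells (adjusted p = 0.0142), as did TCH3 (adjusted p = 0.00717). Without TMM-1 or TMM6 the call of ERF5 was lost. None of the 6 tested cold and abscisic acid genes passed, and the largest differences were those of ERD10 (-1.89, adjusted p = 0.108) and RD29A (0.18, adjusted p = 0.757).

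Ribosomal proteins and photosynthesis genes were lower under the covariate. Of 13 ribosomal protein genes 10 were lower, with a median of -2.31, from RPS6B (-1.86) to EMB2296 (-4.54). RPL10A (-1.99), RPS18A (-2.12), RPL3A (-2.31), RPL23AA (-2.47), RPS6A (-2.89), RPL5A (-3.04), RPL5B (-3.24) and RPS13A (-3.37) lay between them. With matched cells 2 kept the call, EMB2296 and RPL10A, and the median was -2.37. Without the covariate 1 of the 13 was lower, so the count rests on the treatment of depth. Without plate TMM6 it was 6. Of 20 photosynthesis genes 13 were lower and 1 higher, with a median of -1.79. Without the covariate 2 were lower and 1 higher, with a median of -1.05, so this count also rests on the treatment of depth. RBCS1A, a small subunit of Rubisco, was lower by -3.41 (matched adjusted p = 0.0792), and LHCA2 (-2.78) and PSBP-1 (-2.17), subunits of the photosystems, kept their calls with matched cells. RBCS3B (-2.33), LHCB1.1 (-1.72), LHCB2.1 (-1.87), LHCB3 (-1.79), LHCB6 (-1.55), LHCA1 (-2.30), LHCA3 (-1.92), LHCA4 (-2.59), PSBO1 (-2.84) and CA1 (-1.49) did not, and without plate TMM6 there were 6 lower genes. RBCS2B was the exception, detected in 134 of 135 members and 42 of 58 heat-free cells and higher by 2.87 ± 0.67 (adjusted p = 0.00649, matched adjusted p = 0.192). The RBCS genes are close copies, so reads may be shared. Summed over 7 mesophyll markers, the plate means were 160 to 612 TPM in members and 350 to 15438 TPM in heat-free cells, lower in members on 7 of 7 plates, and the part of mesophyll RNA in these differences was not tested.

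**Figure D4:**
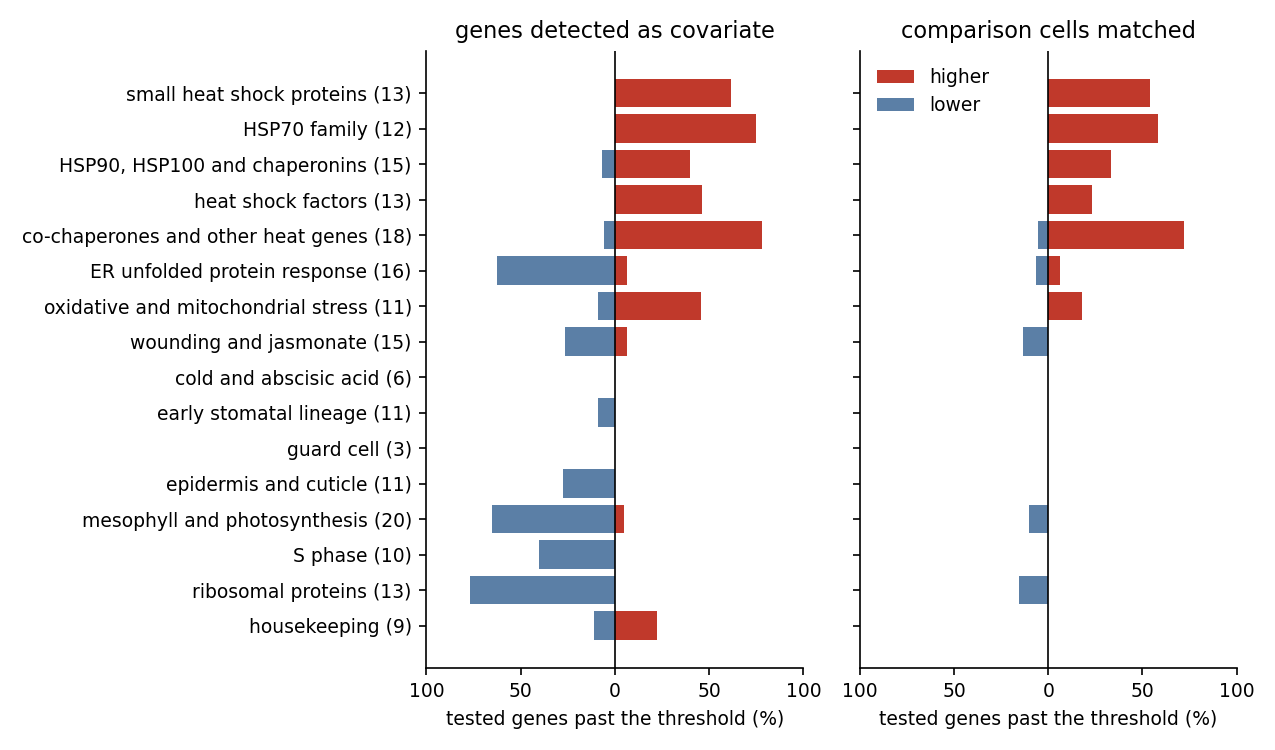
Percent of the tested genes of each list (number tested in brackets) that were higher (red, to the right) or lower (blue, to the left) in heat-response cells at a limma adjusted p under 0.05, with genes detected as covariate (left) and with comparison cells matched on genes detected (right). The co-chaperone list has 14 of 18 genes higher at left and 13 at right, while the ribosomal list goes from 10 of 13 lower to 2.

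TMM was detected in 122 of 135 members and 37 of 58 heat-free cells, with plate means of 557, 737 and 893 TPM against 24.5, 396 and 984 TPM, and the difference of 1.63 ± 0.61 did not pass (adjusted p = 0.0649), although it did without the covariate (2.88, adjusted p = 0.00921). The reporter transcript YFP differed by 1.38 ± 0.63 (adjusted p = 0.125), or 2.70 without the covariate (adjusted p = 0.0156). Of 11 tested early lineage genes only ERL1, a receptor kinase that pairs with TMM, passed (-1.32 ± 0.29, adjusted p = 0.00374, matched adjusted p = 0.160). BASL was detected in 3 members and no heat-free cell, and EPF2 in 13 and 2. Among guard cell markers FAMA, which the rule excludes, and SCAP1 were at 0 in all members, SLAC1 was detected in 12 of 135 members and 4 of 58 heat-free cells, MYB60 in 6 and 3 and KAT1 in 2 and 1, and none of 3 tested guard cell genes passed, with OST1 (0.69) and FLP (-0.35) the furthest from 0. Of 11 epidermal genes PDF1 (-2.18), FDH (-1.42) and LACS2 (-1.82) were lower and none kept the call with matching or without TMM-1 or TMM6, while 1 did without TMM-2 or TMM4. The summed plate means of 4 epidermal markers were 132 to 557 TPM in members and 0 to 1556 TPM in heat-free cells. The vascular markers APL, SULTR2;1, HB-8 and XCP1 and the trichome markers GL1, GL2 and GL3 were at 0 in all members, SUC2 of the vascular markers was detected in 5 members and 2 heat-free cells and TRY of the trichome markers in 1 member, no gene of the vascular list reached the filter, and the 2 tested trichome genes, TTG1 (-0.90) and ATMYC1 (-0.29), did not pass. No cell type beyond the rule is assigned to these cells.

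Of 10 tested genes of DNA replication 4 were lower in the members, MCM5 (-1.49), RNR1 (-1.09), MCM3 (-0.79) and MCM2 (-0.72), with a median of -0.26. None kept the call with matched cells, and without TMM-1 or TMM4 only 1 passed and without TMM-2 or TMM3 only 2. MCM5, a subunit of the replicative helicase, was detected in 6 of 135 members and 12 of 58 heat-free cells. Neither of the 2 tested mitotic genes passed, CYCA2;3 at -1.02 (adjusted p = 0.0874) and SYP111 at 0.14 (adjusted p = 0.654). Of 9 housekeeping genes UBQ10 (1.64), a polyubiquitin gene, and GAPC1 (2.74) were higher and AT5G60390 (-2.32) was lower, and none kept the call with matched cells. UBQ10 lost it without TMM6, and AT5G60390 without TMM-1, TMM-2 or TMM6.

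The sorter recorded 7 scatter and fluorescence channels for each cell, which the rule did not use. Side scatter height, a measure of inner structure, averaged 10.29 ± 0.16 (SD over 7 plates, log2 units) in members and 10.12 ± 0.22 in heat-free cells, was higher in members on 6 of 7 plates and differed by 0.17 ± 0.25 (two-sided exact sign-flip permutation test, p = 0.125, adjusted p over 7 channels 0.241). The FITC area, the fluorescence channel of the sort, differed by 0.24 ± 0.35 (exact p = 0.172, adjusted p = 0.241), and forward scatter area, a measure of size, by 0.11 ± 0.16 (exact p = 0.172, adjusted p = 0.241). No channel passed, and 7 plates can give no p below 0.0156. Members lay on average 0.65 ± 0.84 rows further down the plate (exact permutation p = 0.109, adjusted over 2 directions 0.219) and 0.46 ± 1.96 columns further along (exact permutation p = 0.609), differences smaller than the spread between plates.

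Cells of the ATML1p line did not enter the comparison above. There 21 of 119 cells without a stage gene met the rule (interval 11.3% to 25.7%), between 3 and 9 on each of 4 plates and none on plate ML2, and 74 were heat-free. On the 4 plates with members, 1584 of 13191 genes (12.0%) were higher and 2248 (17.0%) lower, and with matched cells 705 (5.34%) and 726 (5.50%). Of the 326 genes higher by the stricter standard in TMMp, 325 were tested in ATML1p, 323 had the same direction and 297 were called higher. Of the 73 lower ones 71 had the same direction and 52 were called lower. With matched ATML1p cells 234 of the higher and 30 of the lower genes were called in the same direction. AT1G07400 was higher by 12.16, HSP70 by 11.38, BAG6 by 9.14 and HSFA2 by 7.16, and MPK3 was lower by -4.68. Of the 20 photosynthesis genes 19 were lower there, and RBCS2B was one of them (-5.61 ± 0.84, adjusted p = 0.000428). BIP1 and BIP2 did not pass (1.55 and 1.64, adjusted p of 0.0728 and 0.0691). Differences between the lines themselves were not tested, since no plate held cells of both.

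**Figure D5:**
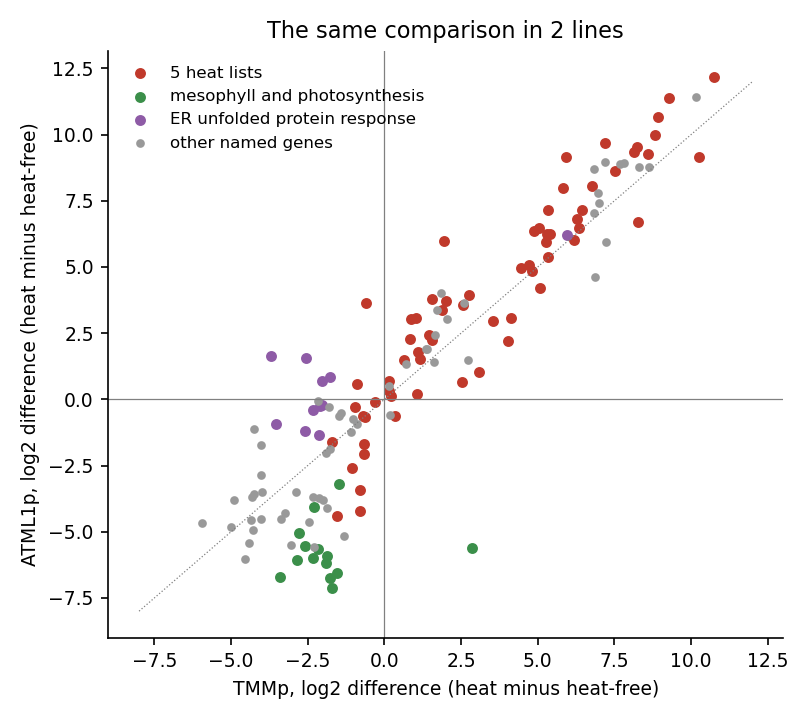
Difference between heat-response and heat-free cells, in log2(TPM + 1), in TMMp (horizontal) and ATML1p (vertical) for the genes named or listed that were tested in both lines, coloured by list; the dotted line marks equal values. Heat-list genes with large rises in TMMp, such as AT1G07400 (10.75) and HSP70 (9.28), are also high in ATML1p (12.16 and 11.38), and RBCS2B is the photosynthesis gene at 2.87 and -5.61.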

How the data were processed

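The labels' protocols give Smart-seq2 chemistry with small-volume Nextera XT libraries. The deposited values are TPM, with totals from 999995.0 to 1000028.7 in TMMp cells, and log2 readings of 7 sorter channels, per the file headers. Cell Ranger and TAIR10 appear in the submitters' processing notes without the samples they were used for, and what made the TPM is not stated. Depth per cell is therefore unknown. All cells were kept, doublets were not sought for want of counts, and no 2 TMMp cells had identical values. No pair of index sequences occurred more than 1 time on a plate, while 121 pairs were used on more than 1 TMMp plate. The 10X samples were not analysed here.

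Cells were classed by the rule at 1 TPM. The members and the 19 gene lists (277 genes) were chosen with earlier results of these data known. Per gene, the log2(TPM + 1) values of a plate were compared between members and heat-free cells with log2 genes detected as covariate, on plates with at least 3 cells of each kind, for genes in at least 5% of compared cells. The plate differences, weighted by cell numbers, went into limma 3.58.1 in R 4.3.3 with Benjamini-Hochberg adjustment over all 10199 genes. The fit thus holds the plate as block, since every plate held both kinds of cells. On simulated data of the same size it recovered 30.5%, 91% and 100% of 200 genes changed by 1, 2 and 4 on the log2 scale, with 1, 10 and 6 false calls. The simulated plate differences were independent normal values, without the zeros of single cells or differences in depth. They therefore do not cover the covariate step, on which the count of lower genes depended. Sorter channels and wells were compared by exact sign-flip tests over plates. Whether plates of 1 pool shared plants was not given, so p-values measure only the spread between plates, which may be technical. The limma term for the difference between pools passed for 0 genes (734 had an unadjusted p under 0.05, lowest limma adjusted p = 0.666). That term set 2 plates against 5, so it cannot show that the pools agree. Any gene of the 5 heat lists could be named. Outside them the 12 largest rises and the 12 largest falls with the same direction on every plate and the same call after matching were named, and of other lists the genes past the threshold, or the 2 largest differences where fewer passed. TMM and YFP were added. Markers given with numbers of cells only come from the marker lists.

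Gene names, overlaps and upstream sequences came from the TAIR10.1 reference (RefSeq), which held 32548 of the 32833 gene IDs. The files hold no coordinates, so those given belong to that reference alone. Alternatives covered depth, pseudocounts, filters, the rule's threshold, the comparison cells, shallow cells, composition, centring, weights and leaving out pools or plates, and cells of ATML1p, which were added after seeing the data.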

Additional observations from a re-analysis of the deposited data

Results flagged for a closer look

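Each plate's difference was compared with those of the other 6 plates for 159 measures of 7 plates. A plate stood apart in 5 of the 159, while chance alone would give about 1 in 20 for independent measures. These measures share plates and cells, so the count allows no verdict, and each flag may be chance. For LHCB1.1, plate TMM6 gave a difference of -5.31 while the other plates lay between -1.998 and -0.04. For RPS13A, plate TMM7 gave 1.69 against -5.03 to -2.29 on the others, and for AT5G60390, plate TMM3, which had 3 heat-free cells, gave 2.80 against -4.04 to -1.23. The YFP transcript differed by 4.98 on plate TMM7, which had 4 heat-free cells, and by 0.54 to 1.66 elsewhere. In heat-free cells the organelle share averaged 18.8% on plate TMM5, which also had 4 such cells, and at most 13.2% on the other plates.

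The direction of 3 genes was opposite on all plates of the 2 lines, a difference that was not tested. BIP1 was lower on all 7 TMMp plates (median -3.07) and higher on all 4 ATML1p plates (0.30 to 2.70), and BIP2 likewise (-3.86 against 0.38 to 3.03). RBCS2B was higher on all TMMp plates (median 2.73) and lower on all ATML1p plates (-8.66 to -2.94).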

How the results depend on the processing

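The count of 1986 genes past the threshold, 759 higher and 1227 lower, moved with several choices. It was 1266 without the covariate (275 lower), 487 with matched cells (391 higher, 96 lower), 655 on log2 of mean TPM (51 lower), 848 with no filter (467 higher, 381 lower), 4585 with stage genes allowed (1473 higher, 3112 lower), 758 without cells under 1000 genes, which leaves 5 plates (442 higher, 316 lower), and 3832 in ATML1p (1584 higher, 2248 lower, and 726 lower with matching). Lower genes numbered 659 with a filter at 20% of cells and 757 with at least 5 cells of each kind per plate. Without pool 1 there were 985 (448 higher, 537 lower) and without pool 2, which leaves 2 plates, 235 (189 higher, 46 lower); leaving out a plate gave 1228 (TMM6) to 1798 genes, 514 to 725 higher and 714 to 1109 lower. Without TMM-1 there were 1257 (728 lower). Without the replicate block 1459 passed (596 higher, 863 lower). 

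Of 123 named genes past the threshold, 49 kept call and direction under every TMMp alternative. Of the 45 heat-list genes past the threshold, 36 kept their call with matched cells, 44 without the covariate, 43 without the block, 36 without pool 1 and 31 without pool 2, and none changed direction in TMMp. Directions that turned, none of them past the threshold after turning except RBCS2B, were in ATML1p, first unmatched and then matched, BIP1 (1.55, 2.13), BIP2 (1.64, 1.57), CNX1 (0.86, 0.75), AT5G07340 (0.71, 1.00), RBCS2B (-5.61, -6.63), HSFA1B (0.59, 0.23) and RD29A (-0.58, -0.55), and matched only HSP90.4 (-0.13) and CYCA2;3 (0.30). On log2 of mean TPM they were PDF1 (0.69), FDH (0.07), RPS18A (0.50), TTG1 (0.08), ATMYC1 (0.56) and CPN60A (0.10, and 0.07 without the covariate). Others were ERD10 (0.24) and SYP111 (-0.49) with stage genes allowed, RD29A (-0.02) with at least 5 cells, HSFA1A (-0.19) without TMM-1 and LHCB6, at -2.61 without pool 1 and 0.04 without pool 2. 

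Sorter channels and well positions did not pass with all plates. Without pool 1 or pool 2 the 5 or 2 plates left cannot give an exact p below 0.0625 or 0.5, so those values are descriptions. With a pool or plate left out, forward scatter area ran from -0.07 (without pool 2) to 0.18, forward scatter height from -0.08 (without pool 2) to 0.17, well column from -0.49 (without pool 2; -0.10 without TMM3) to 0.84 and side scatter width from -0.01 to 0.01. Side scatter width was 0.01 as a median and 0.00 against all other stage-free cells. The causes were not tested. Shares of members per plate stayed within their exact intervals under a threshold of 10 TPM, with stage genes allowed and without cells under 1000 genes.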
